A study of Mus musculus with 6 samples.

Results

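Genes of glycolysis and of the response to low oxygen were described in B16 melanomas, tumors of a transplantable melanoma line of C57BL/6 mice, that had grown to different sizes by the same day. Of 37 listed genes, 15 encode glycolytic enzymes and 22 are other hypoxia genes, among them the oxygen sensors and 2 subunits of the hypoxia-inducible factors (HIF). A gene entered if a named probe was detected (detection p under 0.05) on at least 3 of the 6 arrays, and its brightest such probe stood for it. This gave 28 of the 37, which were 11 glycolytic enzymes and 17 other hypoxia genes, among 10523 genes tested. The probes used for these 28 were detected on all 6 arrays. Just outside the detection limit lay Epas1 and Higd1a, whose best probes were detected on 2 arrays, and Pfkfb3 was detected on 1. For Hk2, Gpi1, Gapdh, Eno1, Bnip3 and Ero1l no named probe was at hand, and they were not analysed here.

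Mice of strain C57BL/6 had received 400000 cells of the syngeneic B16 line, and 8 days later tumors were cut out and freed of adjoining tissue. Large tumors measured 70 to 80 mm2 and small ones 10 to 20 mm2, with 3 samples of each size and 1 Illumina bead array per sample. The labels name no genetic change and no drug for either group. The labels do not say whether the replicates came from separate mice, so p-values cover the spread between these samples, which may be partly technical. The samples hold tumor cells of a single line mixed with whatever host cells the tumor contained. In such bulk RNA, fewer cells of a type and less RNA per cell cannot be told apart. The melanocyte markers Mlana, Pmel, Dct, Tyrp1, Tyr, Mitf and Sox10 were detected on every array.

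Cells short of oxygen stabilise the HIF alpha subunits, because the prolyl hydroxylases that mark these subunits for destruction need oxygen to work. HIF then binds short DNA motifs near its target genes and raises genes for glucose uptake, glycolysis, vessel growth, acid export and collagen modification. Glycolysis breaks glucose to pyruvate in the cytosol, and many tumors, melanomas among them, run it at a high rate even where oxygen is present.

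The core of the motif that HIF binds is ACGTG or GCGTG. Both were searched on both strands of RefSeq promoter windows (GRCm38.p6, from 250 bases before to 50 after each annotated start), which were at hand for 26 of the 28 genes. ACGTG lay in 13 of 21 windows of the other hypoxia genes (61.9%), in 7 of 16 windows of the glycolytic enzymes (43.8%) and in 19.6% of all 32851 windows. GCGTG lay in 10 of 21 (47.6%), 9 of 16 (56.2%) and 32.4%. Windows of 1 gene can overlap, and a match is a description of letters, not of a bound site. The windows printed are those of Car9, P4ha2 and Slc16a3, which are among the hypoxia genes with the largest fold changes, and of Ldha. Counted per strand, Ldha had 5 matches to ACGTG, more than any other of the 26, and its log2 fold change was near 0. The printed windows lie on the plus strand at chr4:43506776-43507075 (Car9), chr11:54100674-54100973 (P4ha2), chr11:120948817-120949116 (Slc16a3) and chr7:46845554-46845853 (Ldha, 1 of its 2 windows). Capitals mark ACGTG on either strand, which reads CACGT where the match is on the other strand and CACGTG where matches on both strands overlap. Each CACGTG counts as 2 matches, so the 5 matches of Ldha lie at fewer separate places.
Car9: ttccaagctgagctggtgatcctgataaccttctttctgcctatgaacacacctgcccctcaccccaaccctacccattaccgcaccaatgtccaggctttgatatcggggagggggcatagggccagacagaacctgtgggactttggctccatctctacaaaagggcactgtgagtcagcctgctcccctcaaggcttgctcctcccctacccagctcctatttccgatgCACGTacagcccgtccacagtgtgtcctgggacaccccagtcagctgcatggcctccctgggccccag
P4ha2: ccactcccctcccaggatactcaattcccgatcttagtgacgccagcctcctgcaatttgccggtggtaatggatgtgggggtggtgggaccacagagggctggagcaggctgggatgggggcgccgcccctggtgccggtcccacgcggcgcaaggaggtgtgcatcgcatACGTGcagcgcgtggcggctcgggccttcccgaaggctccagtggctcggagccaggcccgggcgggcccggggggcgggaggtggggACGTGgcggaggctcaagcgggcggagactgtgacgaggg
Slc16a3: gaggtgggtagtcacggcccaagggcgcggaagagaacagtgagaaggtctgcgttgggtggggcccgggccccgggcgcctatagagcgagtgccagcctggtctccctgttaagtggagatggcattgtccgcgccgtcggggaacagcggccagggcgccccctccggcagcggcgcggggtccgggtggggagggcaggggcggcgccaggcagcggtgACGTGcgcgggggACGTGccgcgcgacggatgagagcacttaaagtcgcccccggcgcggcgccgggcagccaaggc
Ldha: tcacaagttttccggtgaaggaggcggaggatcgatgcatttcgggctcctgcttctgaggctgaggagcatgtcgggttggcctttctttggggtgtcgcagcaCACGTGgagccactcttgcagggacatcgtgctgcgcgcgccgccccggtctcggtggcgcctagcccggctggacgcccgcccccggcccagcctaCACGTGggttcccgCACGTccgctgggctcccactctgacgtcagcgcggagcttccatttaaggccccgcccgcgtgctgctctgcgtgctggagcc
In Car9 the only match stands on the other strand, while P4ha2 and Slc16a3 each have 2 matches on the gene's own strand. In Ldha, 2 matches are on the gene's strand and 3 on the other.

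No glycolytic enzyme and no other hypoxia gene passed the test between large and small tumors. By limma with Benjamini-Hochberg adjustment over all genes tested, 0 of 28 were called at an adjusted p under 0.05, against 2.47% of all genes, and adjusted p-values lay between 0.191 and 0.967. At an unadjusted p under 0.05, 2 of the 28 were higher in large tumors, P4ha2 and Hif1a, against 12.3% of all genes, and 0 were lower, against 10.2%. In none of the 28 probes used did the values of the large tumors separate from those of the small tumors, while the groups did not overlap in 29.6% of all genes. Of the 18 further detected probes of these genes, 4 did separate the sizes, higher in large tumors for Kdm3a, P4ha1 and Vegfa and lower for Tpi1, with adjusted p-values over all probes of 0.0975 to 0.353. The log2 fold changes (large minus small) of the glycolytic enzymes had a median of 0.06 and ran from -0.19 to 0.35. Those of the other hypoxia genes had a median of 0.31, ran from -0.06 to 0.74, and were positive in 14 of 17, against 49.9% of all genes tested and a median of -0.00096 over all genes. With 1 array left out the median of the glycolytic enzymes ran from -0.03 (without small replicate 1) to 0.18 (without large replicate 1), and that of the other hypoxia genes from 0.17 (without small replicate 1) to 0.44 (without small replicate 2). The 2 sets were not tested against each other.

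**Figure D1:**
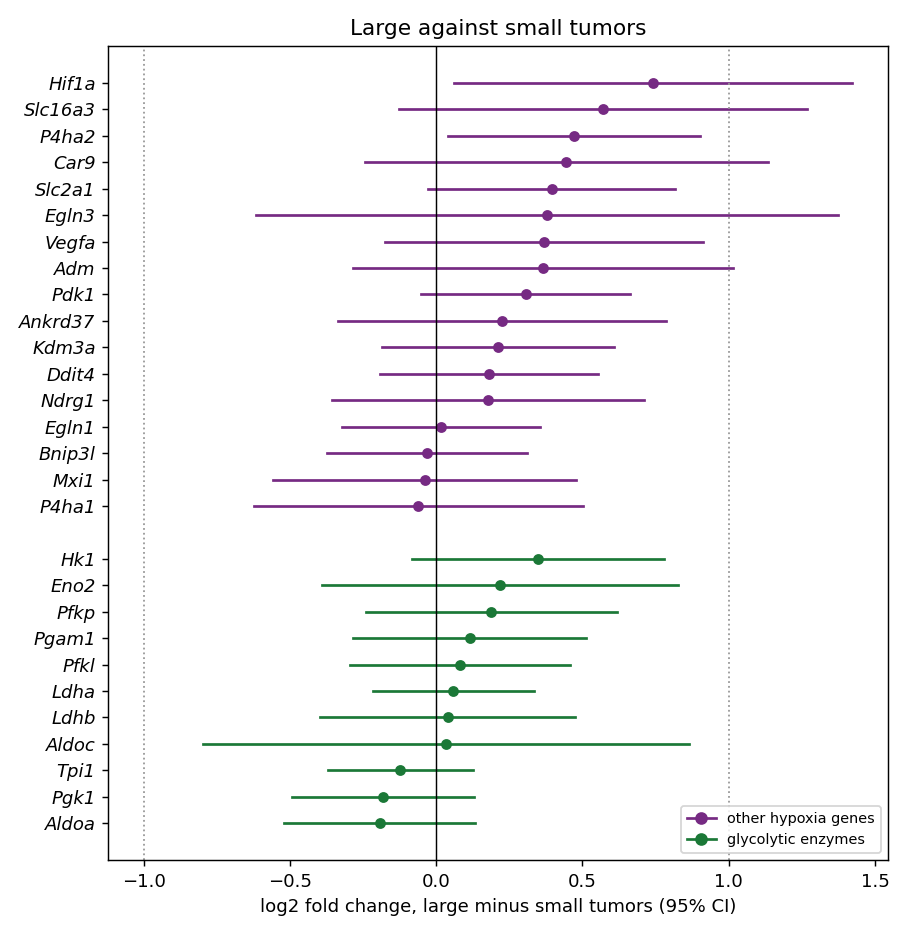
Log2 fold change of each gene between large and small tumors (x axis, log2 scale), with points for the limma estimate, lines for its 95% confidence interval and dotted lines at a 2-fold difference. All 11 intervals of the glycolytic enzymes (green) lie inside a 2-fold difference in either direction, and those of Hif1a and P4ha2 among the other hypoxia genes (purple) leave out 0 before adjustment.

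The intervals limit how large a difference the probe used for each gene could have missed. They do not cover other probes. A dimmer probe of P4ha1 (0.78), of Kdm3a (0.62) and of Tpi1 (0.30) lay above the upper bounds of 0.50, 0.61 and 0.13. For all 11 glycolytic enzymes the 95% confidence interval lay inside a 2-fold difference either way, with the widest from -0.80 to 0.87 for Aldoc. For 12 of the 17 other hypoxia genes it did so too, and for the rest (Hif1a, Slc16a3, Car9, Egln3 and Adm) the upper bound lay between 1.01 and 1.42. These intervals are not adjusted for the number of genes.

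Along the glycolytic pathway, the first step is taken by hexokinases, which trap glucose in the cell as its phosphate. Hk1 had normalized log2 intensities of 7.32, 7.82 and 7.76 in large replicates 1 to 3 and of 7.47, 7.36 and 7.04 in small replicates 1 to 3. Large replicate 1 lay below both small replicates 1 and 2, so the groups overlapped although this was the largest fold change among the enzymes. It was 0.35 ± 0.18 (SE, n = 3 per group; 95% confidence interval -0.08 to 0.78; limma adjusted p = 0.304). A second probe of Hk1, dimmer than the first, had a log2 fold change of 0.45.

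Phosphofructokinase commits the sugar to glycolysis, and its liver and platelet forms are encoded by Pfkl and Pfkp. Pfkp was at 9.78, 10.46 and 9.97 in the large tumors and at 9.86, 9.87 and 9.91 in the small tumors. The small tumors were nearly equal to each other, and large replicate 2 alone stood well above them. The log2 fold change was 0.19 ± 0.18 (adjusted p = 0.577). Pfkl was at 0.08 ± 0.16, with intensities of 12.27 to 12.82 in large and 12.38 to 12.55 in small tumors. Second, dimmer probes of Pfkp and Pfkl had log2 fold changes of 0.40 and 0.33.

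The next enzymes, aldolase, triosephosphate isomerase and phosphoglycerate kinase, held the only negative fold changes among the glycolytic enzymes. Aldoa, the aldolase form that is abundant in muscle, was at 13.20, 13.44 and 13.12 in large tumors and at 13.49, 13.58 and 13.27 in small tumors. Large replicate 2 was above small replicate 3, and the other large tumors were below all small ones. The log2 fold change was -0.19 ± 0.14 (95% confidence interval -0.52 to 0.13; adjusted p = 0.446). Pgk1, which makes the first ATP of the pathway, was at 13.06, 13.41 and 13.24 in large tumors and at 13.29, 13.49 and 13.48 in small tumors. Its fold change was -0.18 ± 0.13 (95% confidence interval -0.49 to 0.13; adjusted p = 0.455), with large replicate 2 again inside the range of the small tumors. Tpi1 had a fold change of -0.12 ± 0.10, and its other probes stood at -0.19 and 0.30. With median scaling in place of quantile normalization, which moved the median of all genes to 0.34, Aldoa, Pgk1 and Tpi1 were at 0.14, 0.18 and 0.11, or -0.20, -0.16 and -0.23 relative to that median.

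Aldoc, the brain aldolase and a known hypoxia-responsive form, varied most within the small tumors, at 8.59, 10.01 and 9.21 in replicates 1 to 3, against 9.02, 9.35 and 9.55 in the large tumors. Its extremes were both small tumors, and its fold change of 0.03 ± 0.35 left a wide interval. Pgam1, the mutase of most tissues, was at 0.11 ± 0.17. Eno2, the enolase typical of neurons, was at 8.05, 8.93 and 8.82 in large tumors and at 8.67, 8.25 and 8.23 in small tumors. Large replicate 1 had the lowest value of all and small replicate 1 lay near the other large tumors, so the groups overlapped (0.22 ± 0.26, adjusted p = 0.658).

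Lactate dehydrogenase turns pyruvate into lactate and so renews the cofactor that glycolysis consumes. Ldha, its form in fast-glycolysing cells and a textbook HIF target, was at 14.12, 14.05 and 14.02 in large tumors and at 13.83, 14.12 and 14.06 in small tumors. Apart from small replicate 1, all values fell within a narrow range. The log2 fold change was 0.06 ± 0.12, with a 95% confidence interval of -0.22 to 0.33 (adjusted p = 0.81). Ldhb, the form of oxidative tissues, had a fold change of 0.04 ± 0.18.

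Among the HIF subunits and the enzymes that sense oxygen, Hif1a had the largest fold change of all 28 genes. It encodes the main oxygen-regulated subunit, whose protein is controlled largely by degradation, so its RNA is not a readout of HIF activity. Hif1a was at 6.87, 7.63 and 7.62 in large tumors and at 6.15, 6.95 and 6.81 in small tumors. Large replicates 2 and 3 were above all small tumors, and large replicate 1 was just below small replicate 2. The fold change was 0.74 ± 0.29 (1.67-fold; 95% confidence interval 0.06 to 1.42; limma adjusted p = 0.192). Quantile normalization of uncorrected signals gave 0.43, and no alternative brought its adjusted p below 0.0659.

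Of the prolyl hydroxylases, Egln1 had a fold change of 0.02 ± 0.14 and Egln3, itself induced by HIF, had one of 0.38 ± 0.42. Egln3 was at 8.34, 7.67 and 6.67 in large tumors and at 7.61, 6.89 and 7.05 in small tumors. The large tumors thus held both its highest and its lowest value, and it was -0.01 without large replicate 1. Kdm3a, a histone demethylase induced by hypoxia, was at 0.21 ± 0.17. Its other probes were at 0.20 and 0.62, and the last of these did not overlap between sizes (adjusted p over probes 0.0975).

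Glucose and lactate transport and the switch away from mitochondrial oxidation are served by Slc2a1, Slc16a3 and Pdk1. Slc2a1, the glucose transporter GLUT1, was at 12.59, 12.98 and 12.74 in large tumors and at 12.07, 12.63 and 12.44 in small tumors. Small replicate 2 exceeded large replicate 1 by little, and the remaining values were separated by size (0.39 ± 0.18; 95% confidence interval -0.03 to 0.82; adjusted p = 0.249). Slc16a3, the lactate exporter MCT4, was at 7.14, 7.77 and 7.92 in large tumors and at 6.63, 7.56 and 6.92 in small tumors. Small replicate 2 again lay above large replicate 1, and the fold change was 0.57 ± 0.29 (95% confidence interval -0.13 to 1.27; adjusted p = 0.298). Pdk1, which shuts pyruvate out of the mitochondrial cycle by inhibiting pyruvate dehydrogenase, was at 9.55, 9.64 and 9.67 in large tumors and at 9.05, 9.58 and 9.32 in small tumors. Its large tumors were close together, and small replicate 2 fell among them (0.31 ± 0.15, adjusted p = 0.28).

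Vessel growth and acid balance are served by Vegfa, Adm and Car9. Car9, a membrane carbonic anhydrase widely used as a hypoxia marker, was at 12.19, 12.57 and 12.83 in large tumors and at 11.56, 12.63 and 12.06 in small tumors. Small replicate 2 was above large replicates 1 and 2, and small replicate 1 was the lowest of all. The fold change was 0.45 ± 0.29 (95% confidence interval -0.24 to 1.13; adjusted p = 0.405), and the other probes of Car9 were at 0.51 and 0.93. Vegfa, the vascular endothelial growth factor, was at 11.36, 11.90 and 11.80 in large tumors and at 10.96, 11.71 and 11.30 in small tumors. It kept the same order of small tumors (0.37 ± 0.23, adjusted p = 0.385), and its second probe stood at 0.65. Adm, the vessel-dilating peptide adrenomedullin, had a fold change of 0.36 ± 0.27.

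Collagen prolyl hydroxylases stabilise the collagen helix, and their alpha subunits P4ha1 and P4ha2 are HIF targets. P4ha2 was at 11.01, 11.64 and 11.45 in large tumors and at 10.73, 11.02 and 10.93 in small tumors. Large replicate 1 lay within the small range, and the others were above it. The fold change was 0.47 ± 0.18 (1.39-fold; 95% confidence interval 0.04 to 0.90; limma adjusted p = 0.191), with the smallest p of the 28 genes. P4ha1 was at -0.06 ± 0.24 by its brightest probe and at 0.78 by the other, so its probes disagreed.

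The remaining targets act in mitophagy, growth control and stress. Bnip3l, which marks mitochondria for removal, was at -0.03 ± 0.14, and Mxi1, an antagonist of Myc, was at -0.04 ± 0.22. Ddit4, an inhibitor of mTORC1 signalling, had a fold change of 0.18 ± 0.16, Ankrd37 one of 0.22 ± 0.24 and Ndrg1 one of 0.18 ± 0.22. The second probe of Ndrg1 was at -0.12. Adjusted p-values of these 5 were 0.535 or more.

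**Figure D2:**
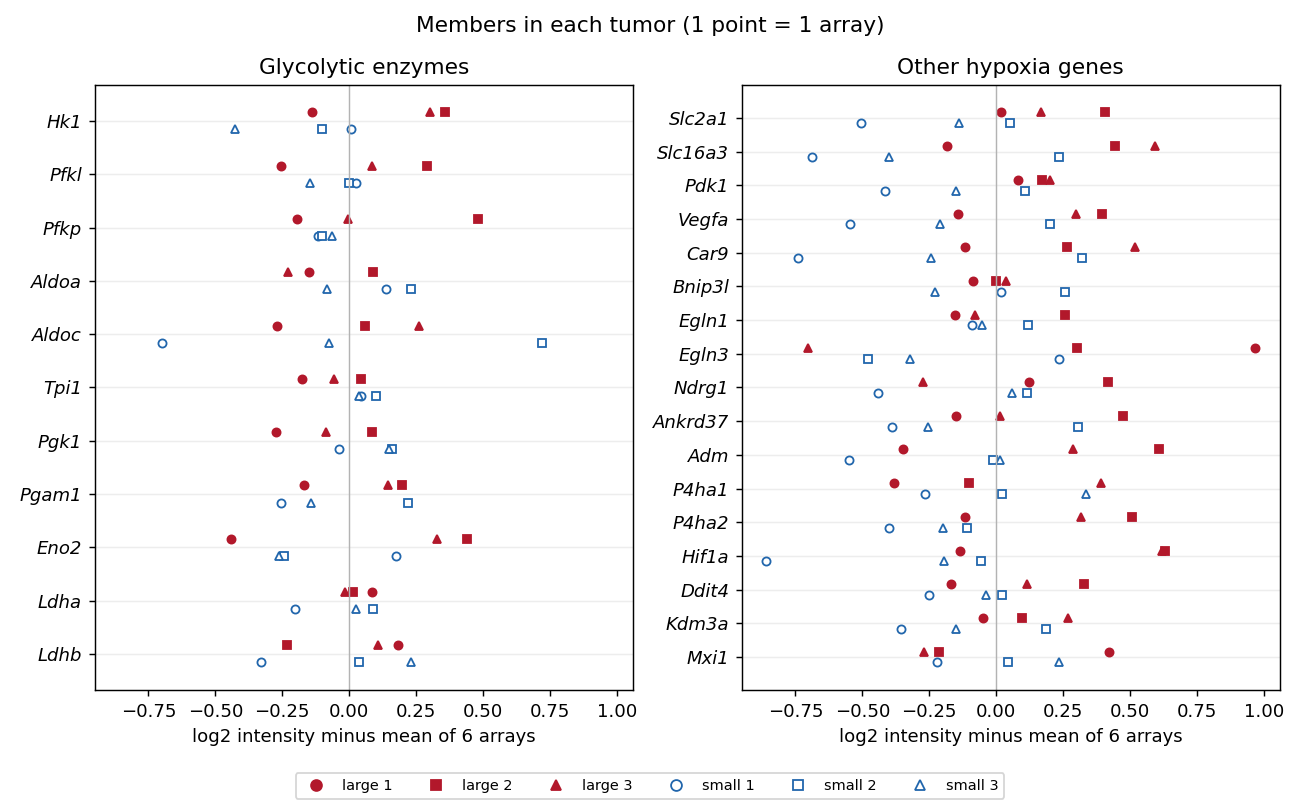
Normalized log2 intensity of each gene minus its mean over the 6 arrays (x axis), with 1 point per array, filled red for large and open blue for small tumors and a shape for each replicate number. Among the other hypoxia genes small replicate 1 (open circles) is lowest of all arrays in 12 of 17 genes, and small replicate 2 (open squares) exceeds large replicate 1 (filled circles) in 14 of 17.

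The same arrays lay low or high across many of these genes. Small replicate 1 was the lowest of all 6 arrays in 12 of the 17 other hypoxia genes (70.6%), as in 23.3% of all genes tested, and small replicate 2 was the highest small tumor in 13 (76.5%, against 32.6%). Large replicate 1 was the lowest large tumor in 14 of 17 (82.4%, against 39.4%) and in 8 of 11 glycolytic enzymes (72.7%). Small replicate 2 exceeded large replicate 1 in 24 of all 28 genes (85.7%), against 48.2% of all genes. These shares describe genes of the same 6 arrays and were not tested. Relative to each gene's own mean, the other hypoxia genes averaged -0.02, 0.29 and 0.15 in large replicates 1 to 3 and -0.38, 0.08 and -0.11 in small replicates 1 to 3. The glycolytic enzymes averaged -0.16, 0.17 and 0.08 in the large group and -0.11, 0.10 and -0.07 in the small group.

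A single array could change the picture at the unadjusted level. Without small replicate 2, 7 of the 17 other hypoxia genes were higher at an unadjusted p under 0.05 (limma), against 13.1% of all genes in that fit, and without large replicate 1 there were 5, against 12.2%. Without large replicate 3 there was 1 (7.83% of all genes). Without large replicate 2, small replicate 1 or small replicate 3 there were 0, against 8.35%, 9.66% and 9.07% of all genes. Of the glycolytic enzymes 2 were higher without large replicate 1 and 0 without any other array. After adjustment over all genes, 0 of the 28 were called in any of these fits.

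The arrays differed in brightness and in the RNA levels of muscle and keratinocyte markers. Small replicate 1 was the dimmest, with 17310 detected probes against 18331 to 19771 on the others. Before normalization every large array was brighter than every small one. The 95th percentile of signal was 1926, 1997 and 1761 in large replicates 1 to 3 and 949, 1561 and 1477 in small replicates 1 to 3. The part of this difference in the fold changes was not tested. Of 20 skeletal muscle markers, 18 were tested, all were lower in large tumors by fold change, and 14 were called, against 1.68% of all genes called lower. Without large replicates 1, 2 or 3 the muscle count was 0, 7 and 0, where 0, 29 and 0 of all genes were called. Without small replicates 1, 2 or 3 it was 6, 11 and 1, where 81, 298 and 1 of all genes were called. The median fold change of the muscle markers was -1.92 to -1.53 in these fits, against -1.75. The muscle markers averaged -0.94, -0.65 and -0.98 in the large group and 0.89, 1.17 and 0.52 in the small group, relative to each gene's mean. The 11 keratinocyte markers tested averaged 2.67, -0.43 and -2.89 in the large group and -3.21, 1.65 and 2.23 in the small group, with 0 called, 0 at an unadjusted p under 0.05 (limma) and a median fold change of -0.58. The muscle markers were highest in small replicate 2 and the keratinocyte markers in large replicate 1. Muscle and skin also express glycolytic enzymes, and the part of these tissues in the values above was not tested.

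**Figure D3:**
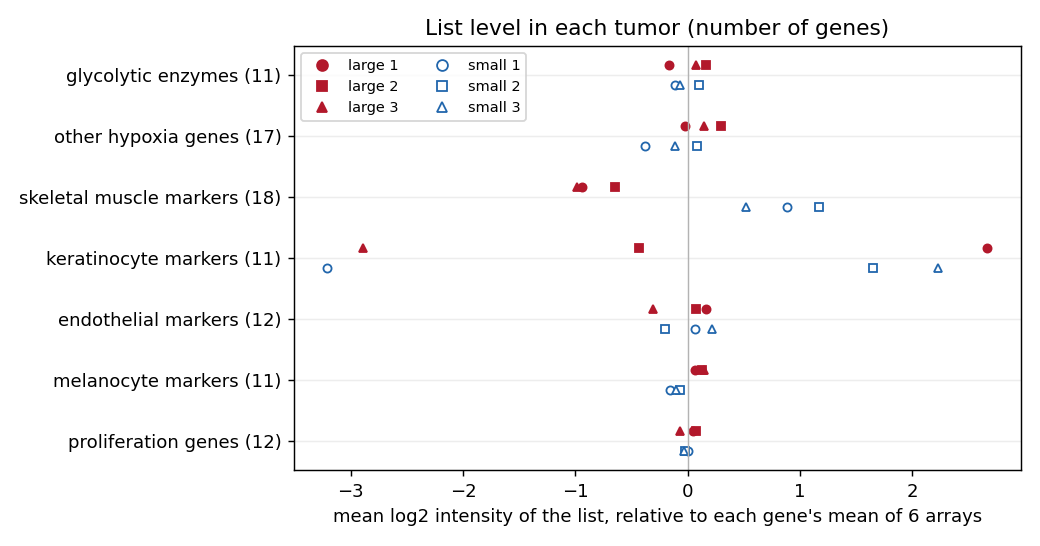
Mean log2 intensity of 7 gene lists in each tumor relative to each gene's mean over the 6 arrays (x axis), with the number of genes in brackets and 1 point per array (filled red for large, open blue for small tumors). The muscle markers separate the sizes, the keratinocyte markers range from -3.21 to 2.67 within both sizes, and the glycolytic enzymes and other hypoxia genes stay between -0.38 and 0.29.

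Further genes of the glycolytic pathway included forms made mainly by muscle and by blood cells, and both called genes were such forms. Of 39 further listed genes 23 were tested, with a median log2 fold change of -0.02, 0 called higher and 2 called lower, against 1.68% of all genes called lower. At an unadjusted p under 0.05 (limma), 2 were higher and 7 lower, against 12.3% and 10.2% of all genes. Pgam2, the muscle form of phosphoglycerate mutase, was at 7.35, 7.79 and 7.04 in large tumors and at 9.37, 9.83 and 9.13 in small tumors. Every large tumor was below every small tumor, and Pgam2 fell by 2.05 ± 0.25 on the log2 scale (limma adjusted p = 0.0274). Hk3, the hexokinase of myeloid cells, was at 7.36, 7.12 and 7.27 in large tumors and at 8.72, 8.06 and 8.82 in small tumors and fell by 1.28 ± 0.21 (adjusted p = 0.0399). Both calls depended on which arrays were kept, as did the count of called genes over the whole array. That count was 0, 29 and 0 without large replicates 1, 2 or 3, and 81, 298 and 1 without small replicates 1, 2 or 3. Pgam2 was not called without large replicate 1 or 3 or small replicate 1 or 3 (log2 fold change -2.22 to -1.87, limma adjusted p = 0.0558 to 0.089). Hk3 was called only without small replicate 2 among these fits (-1.52 to -1.15, adjusted p = 0.0296 to 0.151). The Hk3 call also ended with the replicate number as a block (adjusted p = 0.053) and with median scaling only (-0.91, adjusted p = 0.0695). The gene with the next smallest p was Adpgk, an ADP-dependent glucokinase, at 0.59 ± 0.12 (adjusted p = 0.0573). The muscle enolase Eno3, chosen after its values were seen, was at -0.72 ± 0.19 (adjusted p = 0.0981), and Pkm, the pyruvate kinase of most tissues and tumors, also chosen then, was at 0.15 ± 0.11.

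Most tested markers of macrophages, T cells and adipocytes were lower in large tumors by fold change. Of 14 macrophage markers 11 were tested, all with negative fold changes, 7 lower at an unadjusted p under 0.05 (10.2% of all genes) and 1 called lower (1.68% of all genes; Aif1, which was called without small replicate 2 and in no other fit with 1 array left out, adjusted p = 0.0299 to 0.124), with averages of -0.04, -0.54 and -0.38 in the large group and 0.59, -0.18 and 0.55 in the small group. Of 12 T cell markers 7 were tested, and 4 of them (Cd3d, Zap70, Cd6 and Cd2) were called lower (1.68% of all genes), with a list median of -1.47. Zap70 and Cd2 were detected on 0 large arrays, so their values there lay near background. Of the 7, 6 had negative fold changes, and Cd8b1, the brightest, was at 0.25 (limma adjusted p = 0.335). The T cell markers averaged -0.67, -0.58 and -0.43 in the large group and 0.26, 0.92 and 0.50 in the small group. With 1 array left out, 3 were called without small replicate 1 or 2, where 81 and 298 of all genes were called. In the other fits, which called 0 to 29 of all genes, 0 were. The medians ran from -1.57 to -1.26. Of 9 adipocyte markers 4 were tested, with 0 called, 3 lower at an unadjusted p under 0.05 (limma) and a median of -0.79. The part of muscle, immune and fat cell RNA in the falls of Pgam2, Hk3 and Nampt was not tested.

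Of 46 further hypoxia genes listed, 38 were tested, with a median of 0.08, 21 positive and 17 negative fold changes, 0 called higher and 1 called lower (1.68% of all genes). That gene, Nampt, an enzyme of NAD synthesis that also responds to inflammatory signals, was at 7.17, 7.07 and 7.38 in large tumors and at 8.34, 7.91 and 8.13 in small tumors. It fell by 0.92 ± 0.15 (adjusted p = 0.0395), without overlap between sizes. With 1 array left out it was called only without small replicate 2 (-1.03 to -0.81 over these fits, limma adjusted p = 0.0352 to 0.15). Without small replicate 2, 298 of all genes were called, and in the other fits 0 to 81. With the replicate number as a block the adjusted p of Nampt was 0.0678, and with median scaling only it was 0.12 (log2 fold change -0.57). Plod2, a collagen lysyl hydroxylase, was at 11.14, 11.12 and 11.26 in large tumors and at 10.00, 10.62 and 10.49 in small tumors. Its groups did not overlap either, but at 0.80 ± 0.17 it did not pass the test (adjusted p = 0.065), and neither did Tfrc, the transferrin receptor, at 0.46 ± 0.11 (adjusted p = 0.0837). At an unadjusted p under 0.05, 6 of the 38 were higher and 2 lower, against 12.3% and 10.2% of all genes.

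Of 16 further genes that act on HIF itself (partners, hydroxylases, ligase subunits and coactivators), 12 were tested and 0 were called, with 1 higher and 2 lower at an unadjusted p under 0.05 (limma), against 12.3% and 10.2% of all genes, and a median of -0.09. Os9, an endoplasmic reticulum lectin reported to bind HIF, was at 0.50 ± 0.15 (adjusted p = 0.126). The prolyl hydroxylase Egln2 was at -0.34 ± 0.12 (adjusted p = 0.161) and the ligase subunit Rbx1 at -0.28 ± 0.10 (adjusted p = 0.171). Markers of vessels and of dividing cells, which bear on oxygen supply and demand, gave 0 calls as well. The 12 endothelial markers had a median of -0.08 and 0 at an unadjusted p under 0.05, and the 12 proliferation genes tested had a median of 0.02 and 0 at an unadjusted p under 0.05. The 11 melanocyte markers tested had a median of 0.09 with 0 called, and 3 higher and 1 lower at an unadjusted p under 0.05, against 12.3% and 10.2% of all genes.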

How the data were processed

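Gene expression was measured on 6 Illumina bead arrays, 1 per tumor sample, grouped by the sample titles into 3 large and 3 small tumors. The deposited intensity values are mean bead signals of 45281 probes on a linear scale with no background subtracted, per the file headers and the values, and were read with GenomeStudio per the submitters' processing notes. A detection p-value per probe and array was deposited beside each signal, per the file headers. The authors' processed intensity values for 20346 probes, made by steps that the sources used here do not state, served as an alternative. Signals were normalized to log2 values with neqc of limma 3.58.1 (R 4.3.3; offset 16, background inferred from detection p-values). Offset and quantile normalization compress folds of dim probes. Of 19120 probes kept, 16256 carried 1 symbol in the platform annotation, giving 10523 genes. lmFit and eBayes compared large with small tumors, with group as the only term, and calls were made at an adjusted p under 0.05. The test code was run on data simulated from its own model, with errors independent between genes. This does not check the model's assumptions for these arrays. Genes named were all listed members, genes called in further lists, and the 3 of smallest p in the glycolysis, hypoxia and HIF regulator lists. Eno3, Pkm, Cd8b1 and the melanocyte markers were named outside this rule, the first 3 after their values were seen. The 14 called muscle markers, which the rule covers, were counted but not named. Values per array were given for the 5 largest fold changes of each set and for others picked after their values were seen. Members and lists were chosen with earlier results of these data known. Array number limits the precision. Lists of red cell, neutrophil and fibroblast markers are not reported here.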

Additional observations from a re-analysis of the deposited data

How the results depend on the processing

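In all 18 alternatives, 0 of the 28 glycolysis and hypoxia genes were called. Median scaling moved the median of all genes to 0.34, but not every gene by the same amount. Under it Ldha and Ldhb were at 0.34 and 0.23, or -0.0004 and -0.11 relative to that median. Of 504 fold changes recomputed, 33 changed sign, all in 13 genes and 6 of them under median scaling. The other 15 genes kept their sign, but their size moved with 1 array left out, from 0.18 to 0.72 for Car9, 0.19 to 0.56 for Vegfa, 0.23 to 0.52 for Slc2a1, 0.37 to 0.83 for Slc16a3, 0.17 to 0.43 for Pdk1, 0.33 to 0.65 for P4ha2, 0.50 to 0.99 for Hif1a and 0.0015 to 0.36 for Ndrg1. The count of called genes over the whole array was 404 with quantile normalization of uncorrected signals, 162 with median scaling only, 402 when detected on all 6 arrays, 534 with every probe on its own, 656 with a trended and robust prior and 574 with array weights, against 260. Leaving out large replicates 1, 2 and 3 in turn gave 0, 29 and 0 (limma; 2310, 1647 and 1596 at an unadjusted p under 0.05), and leaving out small replicates 1, 2 and 3 gave 81, 298 and 1. With median scaling only, the medians of the glycolytic enzymes and the other hypoxia genes were 0.44 and 0.72, or 0.10 and 0.38 relative to the median of all genes, and Bnip3l, P4ha1 and Mxi1 stood at 0.39, 0.30 and 0.15 (0.05, -0.04 and -0.19 relative to it), beside Aldoa at 0.14, Tpi1 at 0.11 and Pgk1 at 0.18. Signs also changed with cyclic loess for Ldha (-0.017), Ldhb (-0.071) and Egln1 (-0.046), with array weights for Aldoc (-0.026), Ldhb (-0.13) and Bnip3l (0.024), with the authors' processed values for Ldhb (-0.0201), and with the mean of the detected probes for P4ha1 (0.36). With 1 array left out, fold changes ran from -0.048 to 0.23 for Pfkl, -0.0059 to 0.33 for Pfkp, -0.31 to 0.41 for Aldoc, -0.028 to 0.12 for Ldha, -0.12 to 0.17 for Ldhb, -0.15 to 0.088 for Bnip3l, -0.11 to 0.10 for Egln1, -0.014 to 0.82 for Egln3, -0.27 to 0.11 for P4ha1 and -0.26 to 0.084 for Mxi1. The cause was not tested. Across all genes, same-numbered large and small tumors did not deviate together (r = -0.554, -0.0674 and -0.453). The averages of the other hypoxia genes, in contrast, were lowest in replicate 1 and highest in replicate 2 in both sizes. Whether the numbers pair the tumors cannot be settled from 3 arrays per group. With the replicate block, 109 genes were called. Of the 17 other hypoxia genes, 6 were higher and 0 lower at an unadjusted p under 0.05 (limma), against 2 and 0 without the block. Over all genes, both directions together, the share at that limit was 21.5% with the block and 22.5% without it. Of the falls in further genes, Pgam2 kept its call in 14 alternatives, and Hk3 and Nampt each in 11. Low signal over background limits the fold changes of Mxi1 and Ldhb. Hif1a and Slc16a3 were also dim in small replicate 1, at signals of 128 and 142, against 117 for Mxi1 and 116 for Ldhb. Quantile normalization of uncorrected signals gave 0.43 for Hif1a and 0.355 for Slc16a3, against 0.74 and 0.57.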
